A study of Mus musculus with 19 samples.

Results

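Collagens and the genes that process them were followed in mouse sciatic nerve. The members were all genes whose symbol on the Affymetrix platform had the form Col, number, a, number, together with the processing genes Serpinh1, P4ha1, P4ha2, P4hb, Plod1, Plod2, Plod3, Lox, Pcolce and Bmp1. They came to 52 of the 18193 genes with a symbol of their own, namely 11 fibrillar collagens, 6 basement membrane collagens, 25 other collagens and 10 processing genes. Members were chosen by name, with earlier results of these data known. Each was read from its brightest probe set over 19 arrays. All mice were of the inbred strain DBA/2J, and diabetes was made with streptozotocin (STZ), a toxin of insulin-producing cells. The 4 groups were 5 diabetic mice given rosiglitazone (DR), 5 diabetic mice given vehicle (DV), 5 control mice given rosiglitazone (CR) and 4 control mice given vehicle (CV). Rosiglitazone is a glucose-lowering drug that activates PPAR gamma, a nuclear receptor. The labels give the CV mice's treatment as none. The mice's age and sex, the drug's dose and the length of treatment are not given in the sources used here. Arrays are named below by group and by the number in their title, such as DV706. The study asked whether rosiglitazone alters neuropathy in this diabetes model.

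Collagens are made of several chains wound into a triple helix. Fibrillar collagens such as types I, III and V build the tensile fibres around nerve fascicles and axons, while type IV collagens form the sheet-like basement membranes of Schwann cells, perineurium and vessels. In the endoplasmic reticulum prolyl and lysyl hydroxylases modify the chains and the chaperone HSP47, encoded by Serpinh1, holds the helix. Outside the cell, enzymes such as BMP1 remove the propeptides and lysyl oxidase cross-links the fibres.

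Promoters are shown for 4 members on which the results turn. Col3a1, Serpinh1 and P4ha1 were lower in every DV array than in every CV array, and Col1a2 is a type I partner chain whose groups overlapped. The sequences are from RefSeq, build GRCm38.p6. Each covers the 250 bases before an annotated transcript start, 5′ to 3′ on the gene's strand. The letters TATAAA, as in a TATA box, or CCAAT are in capitals. Col3a1 lies at chr1:45311288-45311537 on the plus strand, Col1a2 at chr6:4505368-4505617 on the plus strand, Serpinh1 at chr7:99353240-99353489 on the minus strand and P4ha1 at chr10:59323046-59323295 on the plus strand.
Col3a1: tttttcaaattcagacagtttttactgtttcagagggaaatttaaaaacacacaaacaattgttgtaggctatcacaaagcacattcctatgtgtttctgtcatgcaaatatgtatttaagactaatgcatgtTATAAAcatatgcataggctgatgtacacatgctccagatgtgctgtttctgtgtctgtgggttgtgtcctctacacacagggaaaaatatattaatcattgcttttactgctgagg
Col1a2: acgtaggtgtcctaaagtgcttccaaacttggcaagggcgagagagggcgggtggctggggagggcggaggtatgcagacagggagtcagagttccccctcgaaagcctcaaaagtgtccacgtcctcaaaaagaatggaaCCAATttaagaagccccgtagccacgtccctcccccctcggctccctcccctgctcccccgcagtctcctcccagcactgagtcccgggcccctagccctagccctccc
Serpinh1: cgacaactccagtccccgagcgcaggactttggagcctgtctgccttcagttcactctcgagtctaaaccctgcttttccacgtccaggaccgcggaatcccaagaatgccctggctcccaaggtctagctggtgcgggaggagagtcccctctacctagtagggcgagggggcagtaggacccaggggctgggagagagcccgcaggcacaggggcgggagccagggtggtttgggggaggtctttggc
P4ha1: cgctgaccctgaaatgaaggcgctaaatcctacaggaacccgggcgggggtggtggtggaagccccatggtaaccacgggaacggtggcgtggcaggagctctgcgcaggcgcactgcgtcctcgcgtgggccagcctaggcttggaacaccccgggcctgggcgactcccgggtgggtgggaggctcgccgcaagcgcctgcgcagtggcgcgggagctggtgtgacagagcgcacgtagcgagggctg
The TATAAA of Col3a1 lay 117 bases before its start and the CCAAT of Col1a2 109 bases before its start. Neither set of letters was found in the windows of Serpinh1 and P4ha1. The P4ha1 window precedes a transcript start at 59323296, and the RefSeq gene begins inside that window, at 59323197.

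Both strands were searched for 6 motifs in the 43 windows of the 40 members with an entry, and in all 32851 windows of the table. The GC box (GGGCGG) was in 27 member windows, or 62.8%, against 32.7% of all windows. The E-box (CANNTG) was in 48.8% of member windows and 66.2% of all, CCAAT in 34.9% and 33.9%, and TATAAA in 13.95% and 12.4%. The hypoxia response core (ACGTG) was in 20.9% and 16.6%, and the heat shock element core (TTCNNGAA) in 4.65% and 7.17%. A match describes letters only. Several collagen genes lie next to each other in the RefSeq annotation. Col4a1 and Col4a2 sit head to head and overlap at their starts, as do Col4a3 and Col4a4, Col4a5 and Col4a6 are neighbours on X, and Col3a1 neighbours Col5a2.

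The arrays' median intensities ran from 83.3 to 101.7. Of 7 markers of Schwann cells and myelin, Mbp (13.83 to 14.44 on the log2 scale) and Pmp22 (13.82 to 14.34) were the steadiest. Mag had the lowest values, 6.76 to 9.78, and the centred mean of the 7 was -0.98 on CR715, -0.55 on DR716, -0.52 on DV707 and -0.04 to 0.33 on the rest. The nerve's sensory axons have their cell bodies in ganglia, yet transcripts of those cell bodies were high on 14 of the 19 arrays labelled sciatic nerve, with Calcb at 10.15 to 12.30, Tac1 at 10.48 to 12.38 and Isl1 at 9.47 to 11.35. On the other 5 arrays Calcb was 3.70 to 6.82, Tac1 4.90 to 6.33 and Isl1 3.83 to 6.41. Values below are therefore those of samples so labelled, and whether they hold ganglion tissue was not tested. The mean of 9 such markers, each centred on its own mean, was -4.03 to -3.31 on 5 arrays (DR716, DV706, DV707, DV709 and CR715) and -0.03 to 2.25 on the other 14. The Gapdh controls at the 3′ and 5′ ends of the transcript, whose log2 difference widens when RNA is broken, differed by 1.75 on DR716, 3.71 on DV706 and 4.38 on DV707, and 1.00 to 1.37 on the remaining arrays. Both sets of arrays hold more DV arrays than others. Results for members are therefore also given without DV706 and DV707, and without the 5 arrays. No fit left out DR716, DV706 and DV707 as a set. The other genes of collagen biology are given below from all 19 arrays only. Over 19 arrays, centred marker levels ran from -2.73 to 4.35 for skeletal muscle, -4.63 to 2.36 for fat and -2.70 to 2.02 for oligodendrocytes. In whole nerve, fewer cells of a type and less RNA per cell cannot be told apart.

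Of the 52 members, 45 had a mean above the filter, a log2 intensity of 5.54. The 7 below it were Col6a4, Col6a5, Col9a1, Col10a1, Col11a2, Col17a1 and Col19a1, with means between 2.83 and 5.25. These include Col10a1, a collagen of hypertrophic cartilage, and Col17a1, a transmembrane collagen of skin attachment. The brightest members were Col1a2, Col3a1 and Col1a1, the chains of types I and III, followed by P4hb, Pcolce and Col6a1. Col7a1, Col20a1, Col13a1, Col22a1, Col4a6 and Col9a3 were the dimmest ones tested. Brightness depends on the probes as well as on the transcript, so it does not rank genes by abundance. 31 tested members had more than 1 probe set.

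Members varied to very different degrees from array to array, with a median span of 1.54 log2 units. P4hb, which encodes protein disulfide isomerase and the beta subunit of prolyl 4-hydroxylase, spanned 0.29 log2 units over all 19 arrays and Col1a2 spanned 0.52. In all, 10 of the 45 spanned less than 1, 20 spanned 1 to 2 and 15 spanned 2 or more. The widest spans were those of Col25a1, a transmembrane collagen of neurons, at 6.28, and Col22a1, a collagen of muscle-tendon junctions, at 4.45. Both were picked here for their span after their values were seen. Col25a1 was 4.90 on DR716, 5.70, 3.48 and 4.83 on DV706, DV707 and DV709 and 4.40 on CR715, and 8.20 to 9.76 on the other 14 arrays. It was thus low on exactly the arrays that were low in sensory neuron transcripts, with no overlap. Col22a1 was low there too, at 3.85 to 5.87, but also on CV703 at 5.06, and it was 6.01 on CR712.

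Bmp1, which removes propeptides, and Col6a3, a chain of type VI collagen, did the opposite. Bmp1 was 10.08 to 10.59 on those 5 arrays and 8.57 to 9.47 on the others, and Col6a3 was 10.77 to 11.27 and 9.80 to 10.68. The other 42 members overlapped between the 2 sets of arrays. On DV706 and DV707, where the Gapdh ends were furthest apart, 5 members had their 2 highest values of all arrays (Col4a1, Col4a2, Col16a1, Lox and Plod1) and 2 had their 2 lowest (Serpinh1 and P4ha1). Col4a1 and Col4a2 are the partner chains of the main basement membrane collagen, and their lowest values were 12.08 on DV708 and 11.90 on DR718. Col16a1 was named here after its values were seen. These patterns were counted among the members only, and how many of all tested genes share them was not counted. They describe arrays and are not a trait of the members. The part that tissue content or RNA quality plays in them was not tested.

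**Figure D1:**
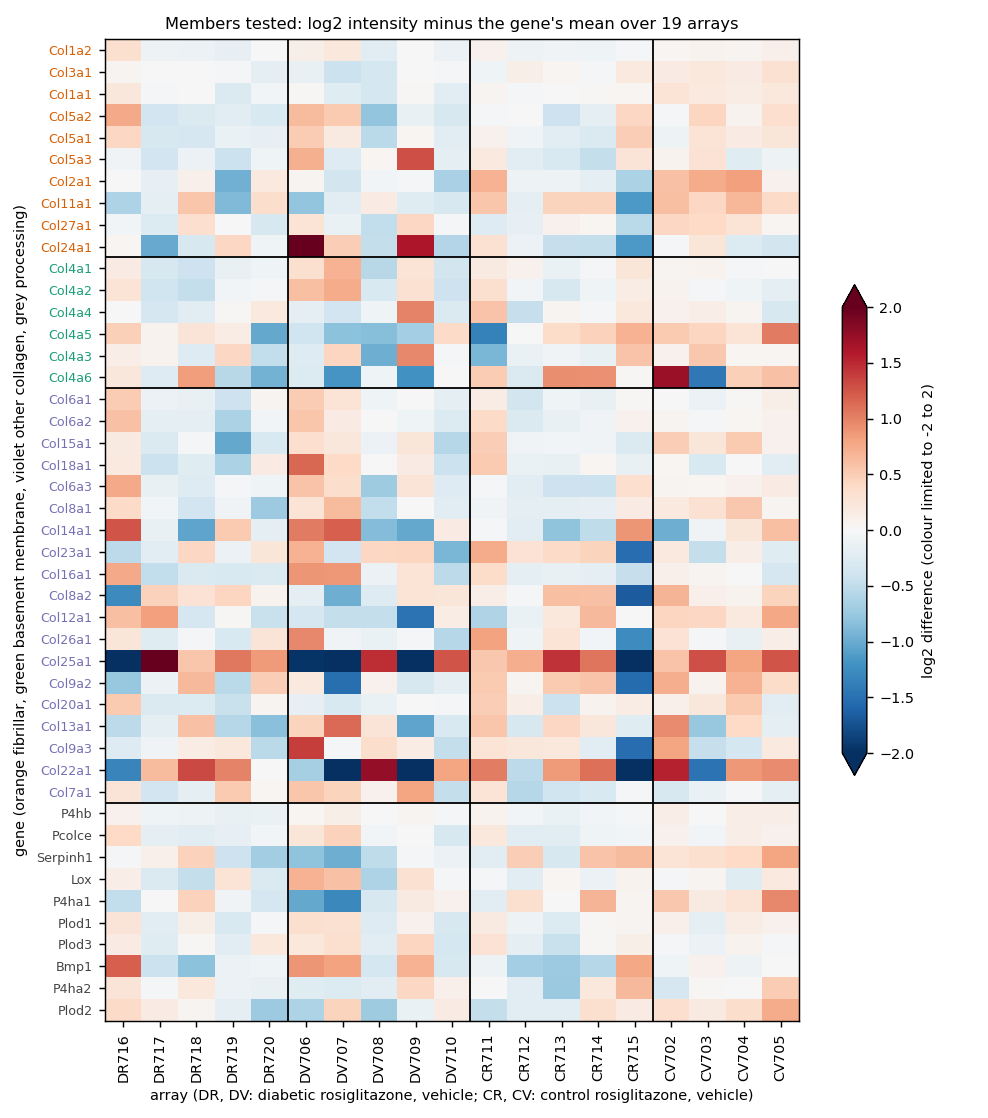
Each row is one of the 45 tested members and each column an array, ordered DR, DV, CR and CV, and colour shows the log2 intensity minus the gene's mean over 19 arrays. Col25a1 is dark blue on DR716, DV706, DV707, DV709 and CR715, and most CV cells of the fibrillar rows are pale red.

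**Figure D2:**
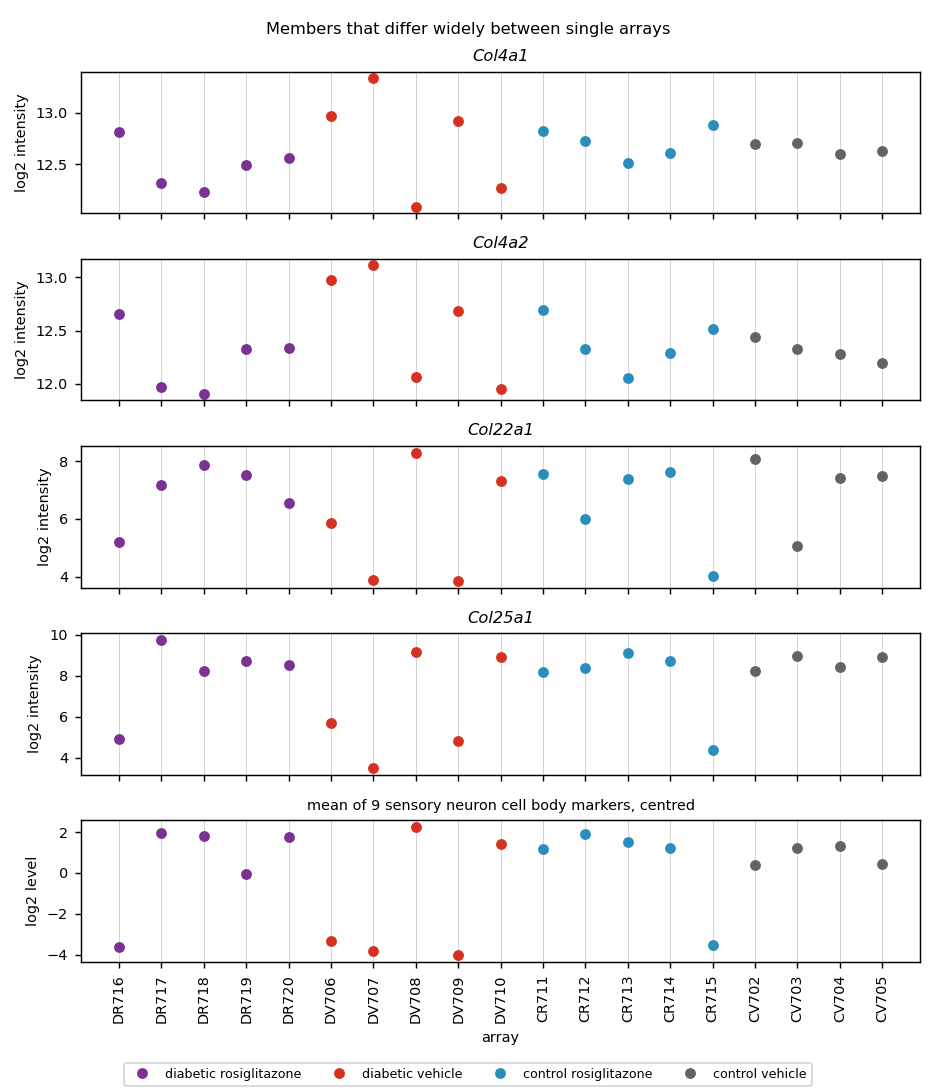
Points are single arrays and colours are groups, with log2 intensity on the vertical axis for Col4a1, Col4a2, Col22a1 and Col25a1 and the centred mean of 9 sensory neuron markers at the bottom. Col25a1 is between 3.48 and 5.70 on the 5 arrays where the marker level is between -4.03 and -3.31.

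The first comparison asked how diabetes under vehicle affected these genes, DV minus CV. No member passed the test after adjustment, and the members with the smallest p, among them 4 of 10 fibrillar collagens and 3 of 10 processing genes, were lower in DV nerves. Among all 13460 genes tested with limma, 0 had a Benjamini-Hochberg adjusted p under 0.05, a background of 0.0%, and the smallest adjusted p was 0.238. At an unadjusted p under 0.05, 9 of 45 members were lower and 0 higher, against 7.39% of all genes lower and 10.7% higher. The 9 were Col1a1, Col2a1, Col3a1, Col11a1, Col4a5, Col12a1, Serpinh1, P4ha1 and Plod2. For 7 of them (Col1a1, Col2a1, Col3a1, Col11a1, Col12a1, Serpinh1 and P4ha1) no DV array reached the lowest CV array, which held for 2.43% of all genes. No member was higher without overlap, against 2.63% of all genes. The median change was -0.07 over the 45 members, with 28 of them lower, and 0.03 over all genes, with 47.1% lower.

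Among the fibrillar collagens the median change was -0.25, and 8 of 10 tested were lower. Col3a1, the single chain of type III collagen, was 13.26, 12.98, 13.06, 13.41 and 13.40 in DV nerves, against 13.57, 13.62, 13.57 and 13.71 in CV nerves. Every DV value was below every CV value. The change was -0.40 (SE 0.10, unadjusted p = 0.00104, adjusted p = 0.238, limma). Col1a1, the main chain of type I collagen, was 13.34, 13.08, 12.97, 13.34 and 13.11 in DV nerves, against 13.60, 13.52, 13.47 and 13.54 in CV nerves. Again the groups did not overlap, and the change was -0.36 (SE 0.10, adjusted p = 0.238). A second probe set of each gene was lower too.

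Col1a2, the partner chain of Col1a1, averaged 13.54 ± 0.17 in DV nerves and 13.61 ± 0.03 in CV nerves (SD, n = 5 and 4). Its change was -0.06 (SE 0.11). Its 2 dimmer probe sets gave -0.32 (SE 0.10) and -0.24 (SE 0.26), the same sign with larger sizes. Col2a1 and Col11a1, chains best known from cartilage, differed by -0.77 (SE 0.26) and -0.80 (SE 0.33) with adjusted p of 0.238 and 0.247. Col2a1 was 8.18 to 8.87 in DV nerves, against 8.91 to 9.64 in CV nerves. For Col11a1 the ranges were 7.0458 to 7.9998 in DV nerves and 8.22 to 8.50 in CV nerves. The level of the 4 tested cartilage and bone markers of 9 measured was -0.90 to 0.49 in DV nerves and -0.09 to 0.54 in CV nerves, and its part in the result was not tested. Col5a1 and Col5a2, which set fibre diameter, differed by -0.15 (SE 0.21) and -0.22 (SE 0.28). Col24a1 and Col5a3 were the 2 fibrillar chains with a higher mean in DV nerves, by 0.76 (SE 0.48) and 0.31 (SE 0.26).

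Among the basement membrane collagens 3 of 6 were lower and 3 higher, with a median of -0.06. Col4a5, a minor type IV chain whose human counterpart is mutated in Alport syndrome, was 8.92, 8.50, 8.46, 8.63 and 9.70 in DV nerves, against 9.85, 9.75, 9.58 and 10.36 in CV nerves. Only DV710 lay within the CV range. The difference was -1.04 (SE 0.38, adjusted p = 0.238), with the other probe set at -1.09. Col4a1 and Col4a2 averaged 12.72 ± 0.52 and 12.56 ± 0.53 in DV nerves and 12.66 ± 0.05 and 12.31 ± 0.10 in CV nerves (SD, n = 5 and 4). Their DV values spread over more than 1 log2 unit, and the differences were 0.06 (SE 0.20) and 0.25 (SE 0.22). Without DV706 and DV707 both turned sign, to -0.24 and -0.08.

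The other collagens had a median of -0.02, and 11 of 19 were lower. Col12a1, which coats type I fibres, was 8.98, 8.84, 8.83, 7.85 and 9.47 in DV nerves, against 9.76, 9.74, 9.51 and 10.09 in CV nerves. The groups did not overlap, and the difference was -0.98 (SE 0.32, adjusted p = 0.238). Only this probe set of the 4 for Col12a1 was lower, and the other 3, all dimmer, gave 0.07 to 0.30. The type VI chains Col6a1, Col6a2 and Col6a3, which form beaded filaments, differed by 0.10 (SE 0.17), 0.04 (SE 0.20) and -0.05 (SE 0.25). Col15a1 and Col18a1, which link basement membranes to the matrix beneath, differed by -0.32 (SE 0.23) and 0.38 (SE 0.25). Col25a1 had the widest difference, -2.22 (SE 1.19, adjusted p = 0.312), and the value turned to 0.40 once the 5 arrays poor in sensory neuron transcripts were left out.

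Among the processing genes 6 of 10 were lower and the median was -0.04. Serpinh1, the collagen chaperone, was 11.21, 11.04, 11.51, 11.99 and 11.89 in DV nerves, against 12.29, 12.33, 12.41 and 12.80 in CV nerves. P4ha1, the catalytic subunit of prolyl 4-hydroxylase, was 9.82, 9.56, 10.53, 11.03 and 10.94 in DV nerves, against 11.39, 11.03, 11.12 and 11.81 in CV nerves. Neither gene overlapped between the groups, though for P4ha1 the highest DV value, 11.0254, was just under the lowest CV value, 11.0273, and DV706 and DV707 held the 2 lowest values of both. The differences were -0.93 (SE 0.26) for Serpinh1 and -0.96 (SE 0.29) for P4ha1, both with an adjusted p of 0.238, and their other probe sets gave -1.01 and -1.07. Plod2, which hydroxylates lysines of the chain ends, differed by -0.57 (SE 0.25, adjusted p = 0.259). The rest of the class ran from -0.09 (SE 0.23) for P4ha2 to 0.37 (SE 0.38) for Bmp1. P4hb differed by -0.07 (SE 0.08), Plod1 by -0.01 (SE 0.15), Pcolce by 0.01 (SE 0.15), Plod3 by 0.10 (SE 0.17) and Lox by 0.19 (SE 0.22).

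Without DV706 and DV707, 8 members were lower at an unadjusted p under 0.05, against 1.96% of all genes, and 37 of 45 were lower with a median of -0.24. Serpinh1 then differed by -0.66, P4ha1 by -0.50, Col3a1 by -0.33 and Col1a1 by -0.39. Leaving out all 5 arrays with few sensory neuron transcripts, which left DV708 and DV710 in the DV group, 14 members were lower at that p, against 4.75% of all genes, 43 of 45 were lower and the fibrillar median was -0.51. The share of all genes that were lower in these fits, whatever their p, is not given here. No gene passed the adjusted threshold in either fit. Leaving out DV710 gave 4 genes with an adjusted p under 0.05 among all genes and 0 among the members. The level of the 10 fibroblast markers was -0.75 to 0.25 in DV nerves and -0.36 to 0.39 in CV nerves. That of the 10 endothelial markers was -0.38 to 1.09 in DV nerves and -0.48 to -0.14 in CV nerves, and the part of either in these differences was not tested.

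**Figure D3:**
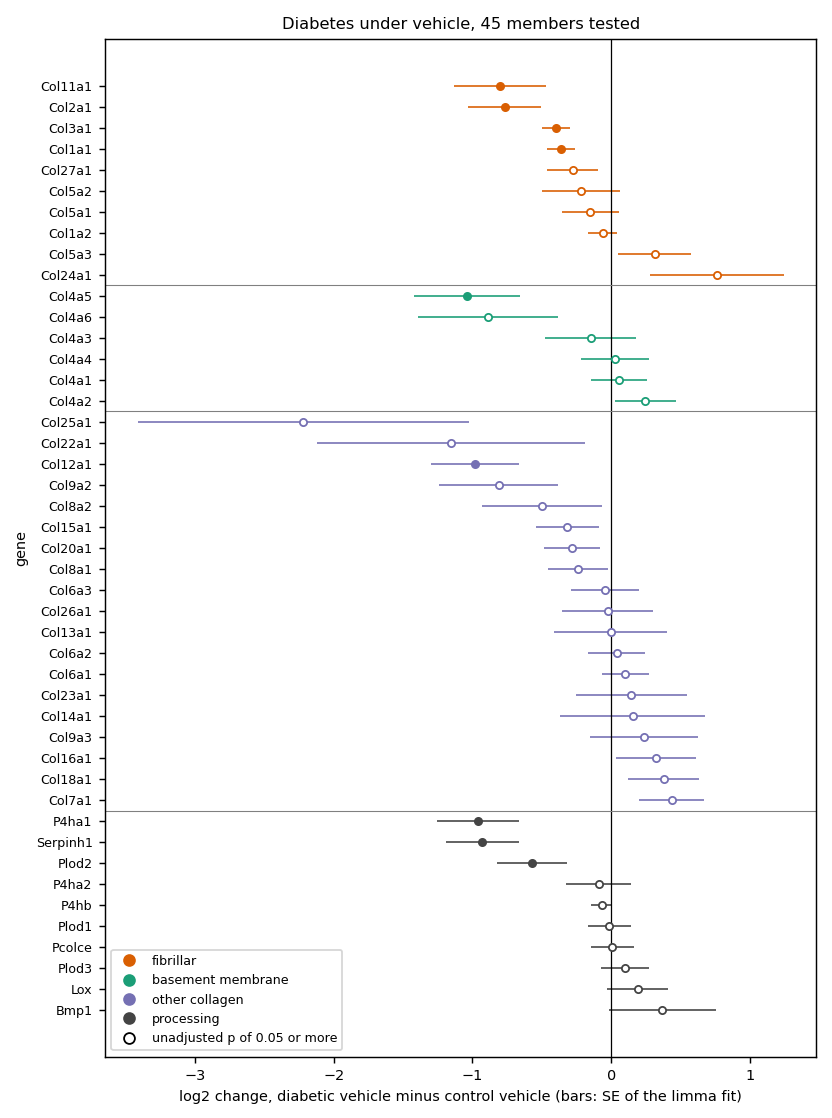
Each point is a tested member, with the log2 change DV minus CV on the horizontal axis and the SE of the limma fit as bars, grouped by class. The 9 filled points, with an unadjusted p under 0.05, all lie left of 0, and Col25a1 has the widest bar at an SE of 1.19.

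**Figure D4:**
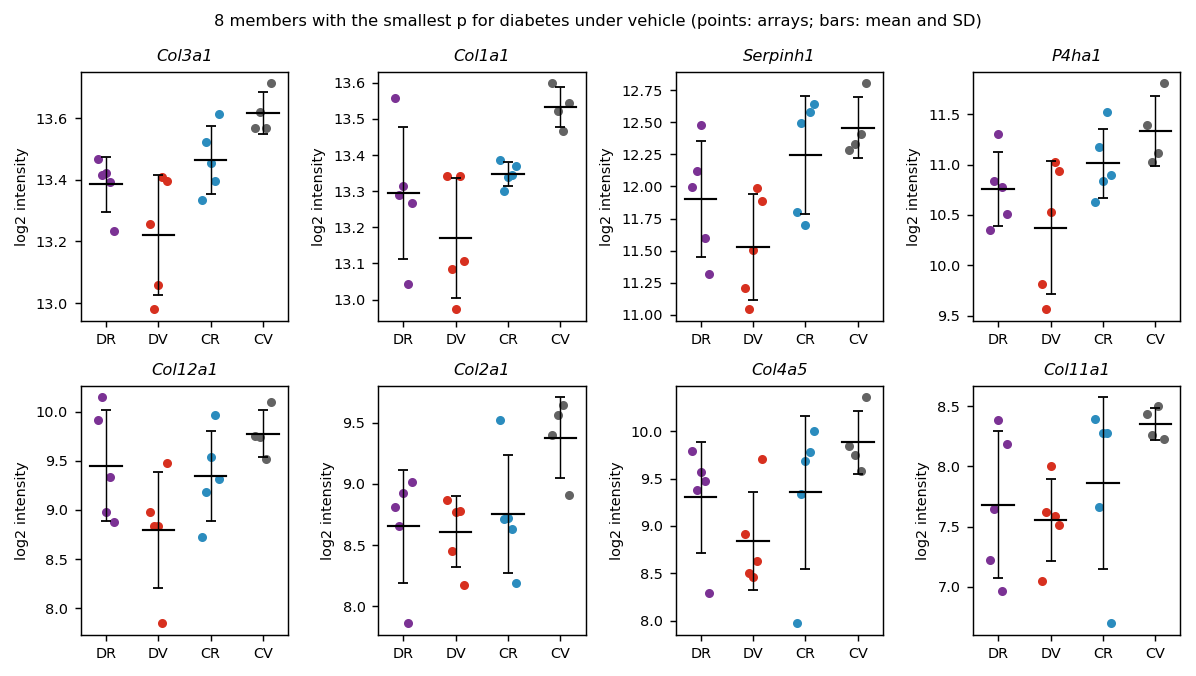
Points are arrays, in the order DR, DV, CR and CV, with the group mean and SD as bars and log2 intensity on the vertical axis, for the 8 members with the smallest p for diabetes under vehicle. In 7 panels all DV points lie below all CV points, and in the panel of Col4a5 DV710 lies among the CV points.

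The next comparison asked what rosiglitazone did in diabetic mice, DR minus DV. Differences ran both ways. No gene passed the adjusted threshold (0.0%), and the smallest adjusted p over all genes was 0.497. At an unadjusted p under 0.05, 1 member was lower and 1 higher, against 5.56% and 4.13% of all genes. Col12a1 was 9.91, 10.15, 8.98, 9.34 and 8.88 in DR nerves, against the DV values given above, a difference of 0.66 (SE 0.30). The groups overlapped. Col5a3, a minor type V chain, averaged 10.69 ± 0.18 in DR nerves and 11.23 ± 0.66 in DV nerves (SD, n = 5 each), a difference of -0.53 (SE 0.25). DV706 and DV709 held its 2 high DV values, 11.61 and 12.19.

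Over the 45 members the median was -0.07 and 28 were lower, beside -0.02 over all genes with 52.8% lower. The class medians were -0.04 for fibrillar, -0.07 for basement membrane, -0.09 for other collagens and -0.08 for processing genes. Col3a1 was 13.47, 13.42, 13.42, 13.39 and 13.23 in DR nerves, and differed by 0.17 (SE 0.09). Serpinh1 differed by 0.37 (SE 0.25), P4ha1 by 0.38 (SE 0.28) and Col1a1 by 0.12 (SE 0.10), while Col1a2 differed by -0.01 (SE 0.10). The 2 largest positive differences, chosen here after their values were seen, were those of Col25a1 at 1.61 (SE 1.13) and Col22a1 at 1.02 (SE 0.91). Negative values were found for Col18a1 (-0.45, SE 0.24), Col24a1 (-0.84, SE 0.46), Col4a2 (-0.32, SE 0.21), Lox (-0.32, SE 0.21) and P4hb (-0.11, SE 0.07). With those same 5 arrays left out, the sign turned for Col24a1, Col4a2 and Lox, to 0.28, 0.12 and 0.14, and the median over members was 0.12. Leaving out single arrays moved the number of members at that unadjusted p between 0 (without DR717 or DR719) and 8 (without DV710). The share of all genes in those fits was 5.71% without DR717, 6.0% without DR719 and 22.3% without DV710.

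In control mice most members had slightly lower means with rosiglitazone, CR minus CV. The median over the 45 members was -0.15 with 38 lower, beside 0.003 over all genes with 49.4% lower. All 10 tested fibrillar collagens and all 10 processing genes were lower, with medians of -0.22 and -0.14, while 4 of 6 basement membrane collagens were higher. No gene passed the adjusted threshold (0.0%), and the smallest adjusted p was 0.999997. Only Col27a1 and Col2a1 were lower at an unadjusted p under 0.05 and none was higher, against 1.35% and 1.48% of all genes. Col27a1, a fibrillar chain of cartilage, was 7.56, 7.66, 7.92, 7.87 and 7.28 in CR nerves, against 8.24, 8.23, 8.10 and 7.86 in CV nerves, a difference of -0.45 (SE 0.18). Col2a1 differed by -0.62 (SE 0.26). No member was at that p without CV702, CV703 or CR715, against 2.12%, 1.96% and 2.98% of all genes in those fits.

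Col1a1 was 13.39, 13.30, 13.34, 13.34 and 13.37 in CR nerves and did not overlap with CV nerves, with a difference of -0.19 (SE 0.10, unadjusted p = 0.0863). This lack of overlap in the lower direction held for 1.87% of all genes, and 1.58% were higher without overlap, among them 0 members. Col3a1 differed by -0.15 (SE 0.10), Plod2 by -0.49 (SE 0.25), P4hb by -0.14 (SE 0.08), Col8a1, a network collagen of vessel walls, by -0.36 (SE 0.22) and Col11a1 by -0.49 (SE 0.33). The CV arrays are the reference of both this comparison and that of diabetes under vehicle, so low values shared by DV and CR nerves are not separate evidence. Side by side, DV minus CV and CR minus CV were -0.40 and -0.15 for Col3a1, -0.36 and -0.19 for Col1a1, -0.93 and -0.21 for Serpinh1 and -0.77 and -0.62 for Col2a1. With limma array weights, 15 members were lower at the unadjusted p, against 8.13% of all genes, and 20 of all genes passed the adjusted threshold, 0 of them members.

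Few genes separated diabetic from control mice when both had rosiglitazone, DR minus CR. No member was at an unadjusted p under 0.05 in either direction, against 0.817% of all genes lower and 0.468% higher, and none of 13460 passed the adjusted threshold (0.0%). The median over members was -0.04 with 26 of 45 lower, beside 0.005 over all genes with 48.3% lower. The 5 smallest p belonged to Serpinh1 at -0.34 (SE 0.25), Col15a1 at -0.29 (SE 0.22), Col4a1 at -0.23 (SE 0.19), Col4a6 at -0.55 (SE 0.48) and Col13a1, a transmembrane collagen, at -0.44 (SE 0.38). For Col4a6 the 2 groups ran from 5.76 to 7.53 in DR nerves and from 6.41 to 7.63 in CR nerves.

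The interaction was DR minus DV less CR minus CV, with signs kept. A positive value therefore need not mean a larger rosiglitazone difference in diabetic mice. For the fibrillar chains the median was -0.04 in DR minus DV and -0.22 in CR minus CV. The interaction was positive for 28 of 45 members, with a median of 0.07. Over all genes the median was -0.02, and 51.8% were negative. Of the fibrillar chains 8 of 10 were positive, with a median of 0.25. At an unadjusted p under 0.05, 3 members were higher and 0 lower, against 1.88% and 2.89% of all genes, and 0 passed the adjusted threshold (0.0%), with a smallest adjusted p of 0.748. The 3 were Col12a1 (1.09, SE 0.44), Col3a1 (0.32, SE 0.14) and Col1a1 (0.31, SE 0.14). Of the 4 probe sets of Col12a1, 2 shared its sign here and 2 in the comparison of DR with DV nerves. Col4a5 followed at 0.99 (SE 0.53) and Col2a1 at 0.67 (SE 0.36). Since the 4 CV and 5 DV arrays are in this contrast as well, it shares their arrays with the comparisons above.

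**Figure D5:**
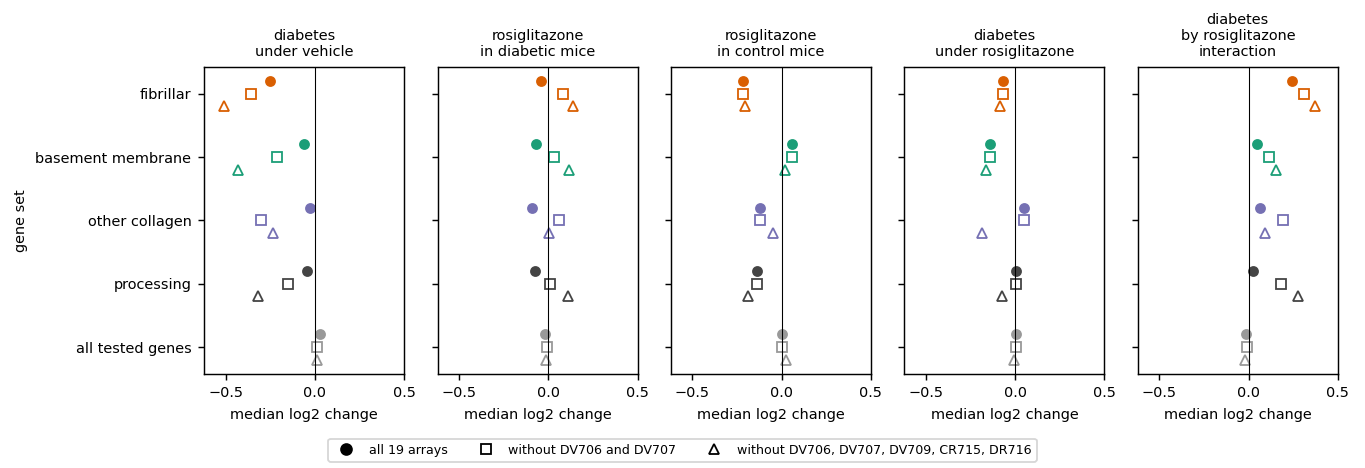
Horizontal positions are the median log2 changes of 4 member classes and of all tested genes in 5 comparisons, with filled circles for all 19 arrays, squares without DV706 and DV707 and triangles without DR716, DV706, DV707, DV709 and CR715. Fibrillar collagens sit at -0.25, -0.36 and -0.51 for diabetes under vehicle, while all genes stay near 0.

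Other genes of collagen biology were read from 3 lists of 52 tested genes in all. In DV against CV nerves 39 of 52 were lower, with a median of -0.19, and 7 were lower and 0 higher at an unadjusted p under 0.05. Over all genes 47.1% were lower with a median of 0.03, and 7.39% were lower and 10.7% higher at that p. No gene of the lists passed the adjusted threshold in any comparison. Of the list of propeptide removal, cross-linking and assembly 14 of 15 were lower, of modification and folding 13 of 18, and of receptors, signals and breakdown 12 of 19. Lum, which encodes the fibril-binding proteoglycan lumican, was 11.43, 11.27, 11.51, 12.24 and 12.06 in DV nerves, against 12.49, 12.52, 12.57 and 12.48 in CV nerves. Every DV value was lower, and the difference was -0.82 (SE 0.17, adjusted p = 0.238). The chaperone Hsp90b1 (-0.86, SE 0.20), the disulfide isomerase Pdia3 (-1.11, SE 0.35) and the metalloproteinase inhibitor Timp1 (-0.80, SE 0.26) came next. DV706 held the lowest value of Hsp90b1 at 10.98, of Pdia3 at 10.15 and of Timp1 at 8.66 in all 19 arrays.

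In DR against DV nerves 4 genes of the lists were higher and 1 lower at that p, with a median of 0.10 over the 52, against 4.13% higher and 5.56% lower and a median of -0.02 over all genes. Lum was 12.16, 12.38, 12.41, 12.25 and 12.22 in DR nerves, 0.58 above DV nerves (SE 0.16, unadjusted p = 0.00199), with DV709 overlapping. Timp1 differed by 0.73 (SE 0.25), the cyclophilin Ppib by 0.59 (SE 0.24) and the collagen receptor Ddr1 by -0.43 (SE 0.13). On DV706 and DV707 Ppib was 12.07 and 11.92, against 13.08, 13.31 and 13.40 on the other DV arrays. In DR nerves Ppib was 12.97 to 13.51, and the part of RNA quality in its difference was not tested. In CR against CV nerves 43 of 52 were lower, against 49.4% of all genes, and Lum was the 1 gene at that p, at -0.54 (SE 0.17), followed by Itgb1 (-0.37, SE 0.21), Dcn (-0.15, SE 0.09) and Colgalt2 (-0.44, SE 0.25). In DR against CR nerves none was at that p, and the 4 smallest p were those of Ddr1 (-0.27, SE 0.13), Lum (0.30, SE 0.16), Ctsk (0.34, SE 0.19) and Mia3 (0.16, SE 0.10). For the interaction 6 were higher at that p, against 1.88% of all genes, led by Lum at 1.12 (SE 0.23, unadjusted p = 1.64e-04, adjusted p = 0.748), with Timp1 at 0.86 (SE 0.36), Dcn at 0.28 (SE 0.12) and Hsp90b1 at 0.66 (SE 0.28). Lum and Dcn are also among the fibroblast markers.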

How the data were processed

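Sciatic nerve RNA of 19 DBA/2J mice, 1 array each, was purified on RNeasy columns, then amplified and given biotin with a NuGEN Ovation kit, per the labels' protocols. Per the series' design text 1 control chip was left out by the authors. For every probe set the authors deposited a linear-scale intensity from each array, made with RMA (background correction, normalization and summary of probes), per the submitters' processing notes. The software, its version and the step back to a linear scale are not given in the sources used here. Normalization between arrays can hide a shift shared by most genes.

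The log2 of each intensity was taken without an offset. Of 45101 probe sets 64 were controls, 34945 had 1 symbol, 932 several and 9160 none in the platform annotation. Each of 18193 genes was read from the probe set with the highest mean, and the 13460 with a mean above the 40th percentile were tested with limma 3.58.1 in R 4.3.3 (4 group means, eBayes, Benjamini-Hochberg adjustment at 0.05 over all genes). The design text names mice as the unit, so the tests set group differences against the spread between arrays of single mice. That spread holds animal, tissue content and RNA quality together. The number of arrays limits the precision. The fit was tested on simulated data for DV minus CV. At an adjusted p under 0.05 it recovered 61% of changes of 1 log2 unit and 87% of changes of 2. The simulated noise was independent between genes and equal between groups, so it held no shift shared by the genes of an array.

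All 52 members were found in the RefSeq table of GRCm38.p6 and 0 symbols differed. No symbol of the form Leprel was in the annotation. The members and the lists of pathway genes and markers were chosen with earlier results of these data known. Named in every case were 12 common collagens and the 10 processing genes. By value, the 8 members with the smallest p in the first 3 comparisons, the 5 with the smallest in the other 2, the 6 brightest and the 6 dimmest were named, with up to 4 pathway genes a comparison. Alternatives were no filter and a filter at the median, the mean of a gene's probe sets, quantile normalization, a fit of only the groups compared, array weights, the Gapdh 3′ minus 5′ difference as covariate, and leaving out each array, DV706 with DV707, or the 5 arrays low in sensory neuron transcripts.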

Additional observations from a re-analysis of the deposited data

Results flagged for a closer look

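In 144 groups of 4 or 5 arrays (36 named members in 4 groups), 9 had 1 array far from the others by Dixon's test, a number near the 1 in 20 that chance gives. Of these 5 were on DR716, an array that was low in sensory neuron transcripts and highest of all 19 in the fibroblast marker level, at 0.58. Its Gapdh 3′ minus 5′ difference, 1.75, was the widest outside DV706 and DV707. There Col5a1 was 11.66 (the other DR arrays 10.90 to 11.11), Col5a2 12.71 (11.56 to 11.74), Col6a3 11.27 (10.26 to 10.47), P4hb 13.38 (13.15 to 13.20) and Pcolce 13.55 (12.94 to 13.09), all above the rest of their group. The part of cell content or RNA quality in these values was not tested. On DR720 Col4a5 was 8.29, below 9.38 to 9.79 on the other DR arrays. Among the CR arrays Col18a1 was 11.10 on CR711, above 10.43 to 10.62, and Col9a3 was 5.199 on CR715, below 6.51 to 7.002. On CV703 P4hb was 13.30, below 13.42 to 13.43 on the other CV arrays.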

How the results depend on the processing

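No paired analysis was possible because no replicate number is shared between groups. Under the alternatives 752 values over sets of genes kept within their bounds and 56 moved, while for single named members 941 values kept their direction and 53 turned. The causes were not tested. Percentages beside counts of members are the share of all tested genes at that p in the same fit. With single arrays left out, the counts and the shares are each a range over those fits. The ends of these ranges can come from different fits, so they do not pair up.

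For DV minus CV, values are given with the reported one in parentheses. The number of genes at an adjusted p under 0.05 (0) was 0 to 4 with single arrays left out. The number of members at an unadjusted p under 0.05 (9, 18.1%) was 14 without the 5 arrays (11.4%). The median of all tested members (-0.07) was -0.23 with array weights, -0.26 with the Gapdh covariate, -0.24 without DV706 and DV707 and -0.33 without the 5 arrays. The median of fibrillar collagens (-0.25) was -0.51 without the 5 arrays. The median of basement membrane collagens (-0.06) was -0.43 without the 5 arrays and -0.30 to 0.078 with single arrays left out. The median of other collagens (-0.025) was -0.30 without DV706 and DV707. The median of processing genes (-0.042) was -0.32 without the 5 arrays. Bmp1 (0.37) was -0.015 with the Gapdh covariate and -0.31 without the 5 arrays. Col18a1 (0.38) was -0.089 without the 5 arrays. Col4a1 (0.056) was -0.13 with array weights, -0.24 with the Gapdh covariate, -0.24 without DV706 and DV707, -0.48 without the 5 arrays and -0.10 to 0.21 with single arrays left out. Col4a2 (0.25) was -0.074 with the Gapdh covariate, -0.077 without DV706 and DV707 and -0.30 without the 5 arrays. Col6a1 (0.10) was -0.0016 with array weights, -0.10 with the Gapdh covariate, -0.088 without DV706 and DV707 and -0.14 without the 5 arrays. Col6a2 (0.039) was -0.055 with array weights, -0.17 with the Gapdh covariate, -0.15 without DV706 and DV707, -0.17 without the 5 arrays and -0.082 to 0.12 with single arrays left out. Col6a3 (-0.046) was -0.18 to 0.14 with single arrays left out. Lox (0.19) was -0.094 with the Gapdh covariate, -0.11 without DV706 and DV707 and -0.33 without the 5 arrays. P4ha2 (-0.091) was 0.0086 with the Gapdh covariate, 0.055 without DV706 and DV707 and -0.22 to 0.061 with single arrays left out. Pcolce (0.0082) was -0.15 with the mean of probe sets, -0.12 with array weights, -0.20 with the Gapdh covariate, -0.18 without DV706 and DV707, -0.24 without the 5 arrays and -0.092 to 0.10 with single arrays left out. Plod1 (-0.014) was 0.074 with the mean of probe sets, 0.0029 with quantile normalization and -0.089 to 0.072 with single arrays left out. Plod3 (0.10) was -0.032 with array weights, -0.041 with the Gapdh covariate, -0.026 without DV706 and DV707 and -0.27 without the 5 arrays.

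For DR minus DV, values are given with the reported one in parentheses. The number of members at an unadjusted p under 0.05 (2, 9.7%) was 4 with no filter (9.89%), 0 with the mean of probe sets (8.51%), 0 with only the groups compared (3.26%), 1 with array weights (7.67%), 0 with the Gapdh covariate (2.53%), 1 without DV706 and DV707 (1.92%), 1 without the 5 arrays (4.23%) and 0 to 8 with single arrays left out (3.32% to 22.3%). The median of all tested members (-0.066) was 0.12 without the 5 arrays. The median of basement membrane collagens (-0.068) was -0.21 to 0.17 with single arrays left out. The median of processing genes (-0.076) was 0.11 without the 5 arrays. Col24a1 (-0.84) was 0.28 without the 5 arrays. Col4a2 (-0.32) was 0.011 with the Gapdh covariate, 0.004 without DV706 and DV707 and 0.12 without the 5 arrays. Lox (-0.32) was 0.14 without the 5 arrays.

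For CR minus CV, values are given with the reported one in parentheses. The number of genes at an adjusted p under 0.05 (0) was 20 with array weights. The number of members at an unadjusted p under 0.05 (2, 2.83%) was 5 with only the groups compared (5.97%), 15 with array weights (15.4%), 4 with the Gapdh covariate (4.75%), 9 without the 5 arrays (8.9%) and 0 to 3 with single arrays left out (1.52% to 3.8%).

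For DR minus CR, values are given with the reported one in parentheses. The number of members at an unadjusted p under 0.05 (0, 1.29%) was 1 with array weights (7.42%) and 2 without the 5 arrays (5.66%). The median of other collagens (0.049) was -0.22 to 0.12 with single arrays left out.

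For the interaction, values are given with the reported one in parentheses. The number of members at an unadjusted p under 0.05 (3, 4.77%) was 1 with the mean of probe sets (5.68%), 6 without the 5 arrays (6.97%) and 1 to 5 with single arrays left out (2.47% to 13.7%). The median of all tested members (0.074) was 0.24 with the Gapdh covariate, 0.21 without DV706 and DV707 and 0.24 without the 5 arrays. The median of basement membrane collagens (0.046) was -0.16 to 0.12 with single arrays left out. The median of processing genes (0.026) was 0.22 with the Gapdh covariate and 0.28 without the 5 arrays.

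The number of arrays, 4 or 5 a group, limits what can be told, and the deposited values carry no call of signal over background. The alternatives without DV706 and DV707 and without the 5 arrays were chosen with these data known, and leaving out the 5 keeps 2 DV arrays.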
